A study of Homo sapiens with 6 samples.

Results

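The control state of 786-O cells was described from 3 of the 6 samples of the series, the ones labelled puro, which were taken by their columns in the deposited FPKM table. 786-O is an established human line from a clear cell renal cell carcinoma. The other 3 samples carry a short hairpin RNA against IGF2BP2, a reader of N6-methyladenosine on RNA, and were not used here. The puro cells were grown in RPMI1640 with fetal bovine serum, and polyadenylated RNA was sequenced from TruSeq libraries. What puro stands for is not spelled out in the labels, and neither is whether the 3 samples came from separate cultures, so the spread given here may be technical.

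The von Hippel-Lindau protein, VHL, is the substrate-binding part of an E3 ubiquitin ligase. Under normal oxygen, prolyl hydroxylases mark the alpha subunits of hypoxia-inducible factor (HIF), and VHL sends them to the proteasome. Most clear cell renal carcinomas lose VHL, and 786-O cells lack a functional copy and are used as a line that accumulates HIF-2 alpha protein but no functional HIF-1 alpha protein. The tumour is thought to arise from the proximal tubule, the nephron segment that reabsorbs glucose, amino acids, phosphate and filtered protein. Its cells usually carry much HIF-driven VEGFA, glycolytic enzymes and lipid droplets.

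The table listed 20020 genes, and the 3 libraries held 37143673, 33821216 and 34562335 counts. FPKM is a count divided by gene length and by library total, so levels of different genes are compared here per length. A gene was called expressed at a mean of at least 1 FPKM, low from 0.1 to under 1 FPKM and silent under 0.1 FPKM. By that rule 10560 genes (52.7%) were expressed, 2337 were low and 7123 (35.6%) were silent, and 3571 (17.8%) had no read in any of the 3 samples. The median over all genes was 1.44 FPKM, 5134 genes reached 10 FPKM, 538 reached 100 FPKM and 37 reached 1000 FPKM. For a gene of median length, 1 FPKM stood for 145, 132 and 135 counts in puro 1, 2 and 3. A gene with no read could still have up to 3 counts per library, which is 0.0808, 0.0887 and 0.0868 CPM (counts scaled to library total), and this limit covers counting error only. In bulk RNA a low level in many cells and a high level in few cells cannot be told apart, nor can fewer cells of a type and less RNA per cell.

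**Figure D1:**
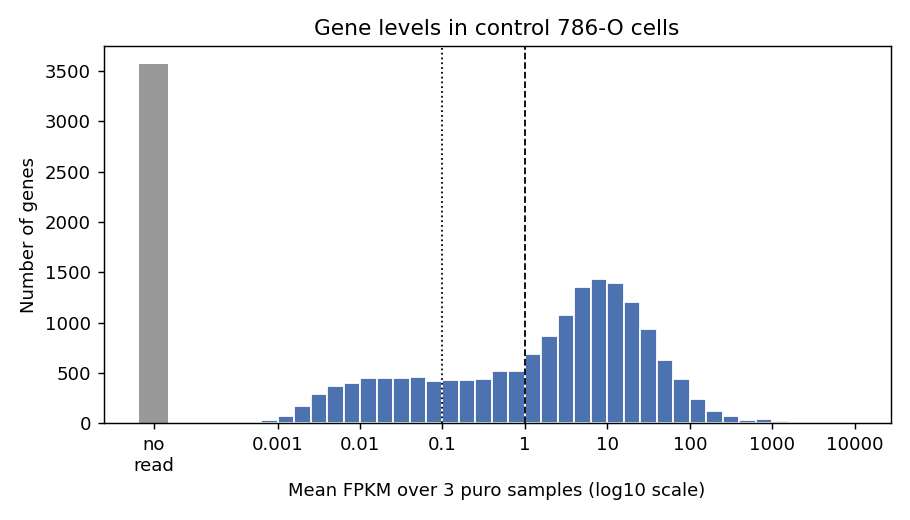
Number of genes (vertical axis) by mean FPKM over the 3 puro samples (horizontal axis, log10 scale); the grey bar holds the 3571 genes with no read, the dotted line marks 0.1 FPKM and the dashed line 1 FPKM. The genes form a broad peak near 10 FPKM and a long low shoulder under 1 FPKM.

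The 3 samples were close to each other. Their log2(FPKM + 1) values correlated across the 10560 expressed genes at 0.9955 to 0.9973, where genes are not independent replicates. The biological coefficient of variation fitted by edgeR was 7.28%. The median gene differed by 1.09-fold between puro 1 and puro 2, and 11 genes differed by more than 2-fold between them. Counts of each pair still differed by more than sampling noise, with a chi-square over its degrees of freedom of 6.80 to 15.1. A gene-length trend ran through the differences: the shortest 2640 of the expressed genes (median length 1743 bases) sat at a median log2 deviation from the mean of 0.05 in puro 1 and -0.05 in puro 2, and the longest 2640 (7880 bases) at -0.06 and 0.06. Among genes at 10 FPKM or more, NDUFA13, a subunit of respiratory complex I, had the largest coefficient of variation, with 16.5, 7.98 and 9.72 FPKM. ATP5ME, TMEM256, MRPL12 and RPL26 followed, and all 5 were highest in puro 1. Exons of the 5 overlap other genes on either strand, by 21.0%, 61.6%, 29.8%, 68.2% and 14.3% in that order. The parts of the length trend and of this overlap in these differences were not tested.

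Of 19 markers of other cell types, COL1A1 alone reached a mean of 1 FPKM. The leukocyte markers PTPRC, CD3E, CD14, LYZ and MS4A1 summed to 0.296, 0.329 and 0.0527 FPKM in puro 1, 2 and 3. The endothelial markers PECAM1, CDH5, VWF, KDR and CLDN5 summed to 0.275, 0.306 and 0.140 FPKM. The fibroblast markers DCN, LUM, PDGFRB, COL1A1 and PDGFRA summed to 1.76, 1.35 and 1.42 FPKM, of which COL1A1 alone gave 1.14, 1.09 and 0.939 FPKM, and DCN had no read. Of the blood and liver markers, ALB and HBA1 had no read, and the 4 markers summed to at most 0.0540 FPKM.

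By FPKM, the most abundant transcripts came from the mitochondrial genome, the cytoskeleton, the ribosome and glycolysis. MT-CO2, a subunit of cytochrome c oxidase, stood first with 4928 ± 51.5 FPKM (SD, n = 3; every ± value in FPKM is this SD). TMSB10, which binds actin monomers, followed with 4622, 3917 and 4054 FPKM in puro 1, 2 and 3. GAPDH, the glycolytic dehydrogenase, had 3063, 2832 and 3059.9 FPKM, and LGALS1, a secreted galactoside-binding lectin, had 2864, 2341 and 2556 FPKM. MT-CO1, another cytochrome c oxidase subunit, had 3660.0, 3876 and 3679 FPKM, below TMSB10 in each sample. Of the 25 most abundant genes, 9 encode cytosolic ribosomal proteins, 8 are mitochondrially encoded, and the other 8 are TMSB10, GAPDH, LGALS1, TUBA1B, ENO1, VIM, ACTB and PKM. VIM, the intermediate filament of mesenchymal cells, had 1829, 1731 and 1844 FPKM (chromosome 10, 17228259 to 17237593, plus strand, GRCh38). The tubulin gene TUBA1B averaged 1999.6 ± 87.4 FPKM and the actin gene ACTB 1782 ± 38.8 FPKM.

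The 10 most abundant genes held 8.54% ± 0.189 of all FPKM, and the top 100 held 31.6% ± 0.525. Cytosolic ribosomal protein genes, 87 in number, took 14.2%, 12.9% and 13.7% of the FPKM sum in puro 1, 2 and 3. The 13 mitochondrially encoded genes took 7.13%, 7.54% and 6.99%. The largest ribosomal share was thus in puro 1 and the largest mitochondrial share in puro 2. With no division by length, the mitochondrial genes held 2.33% of counts. EEF1A1, 36th by FPKM with a length of 9417 bases implied by its counts and FPKM, held 0.952% of counts. MT-CO2 held 0.337% of counts, so the order of abundance depends on the gene lengths used.

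The 5 families examined differed in how much of each was expressed. HIF pathway genes led, with 71 of 82 expressed and a median of 22.7 FPKM. Matrix genes had 99 of 226 expressed with a median of 0.454 FPKM, growth factors and their receptors 78 of 210 with a median of 0.135 FPKM, renal genes 42 of 142 with a median of 0.0318 FPKM, and cytokines and their receptors 64 of 241 with a median of 0.0372 FPKM. Only the HIF share, 86.6%, lay above the 52.7% of all genes, while the other 4 ranged from 26.6% to 43.8%. Members with no read numbered 2 in the HIF, 16 in the matrix, 38 in the growth factor, 27 in the renal and 75 in the cytokine family. Lists within a family differed as widely, as the bars for each list show.

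**Figure D2:**
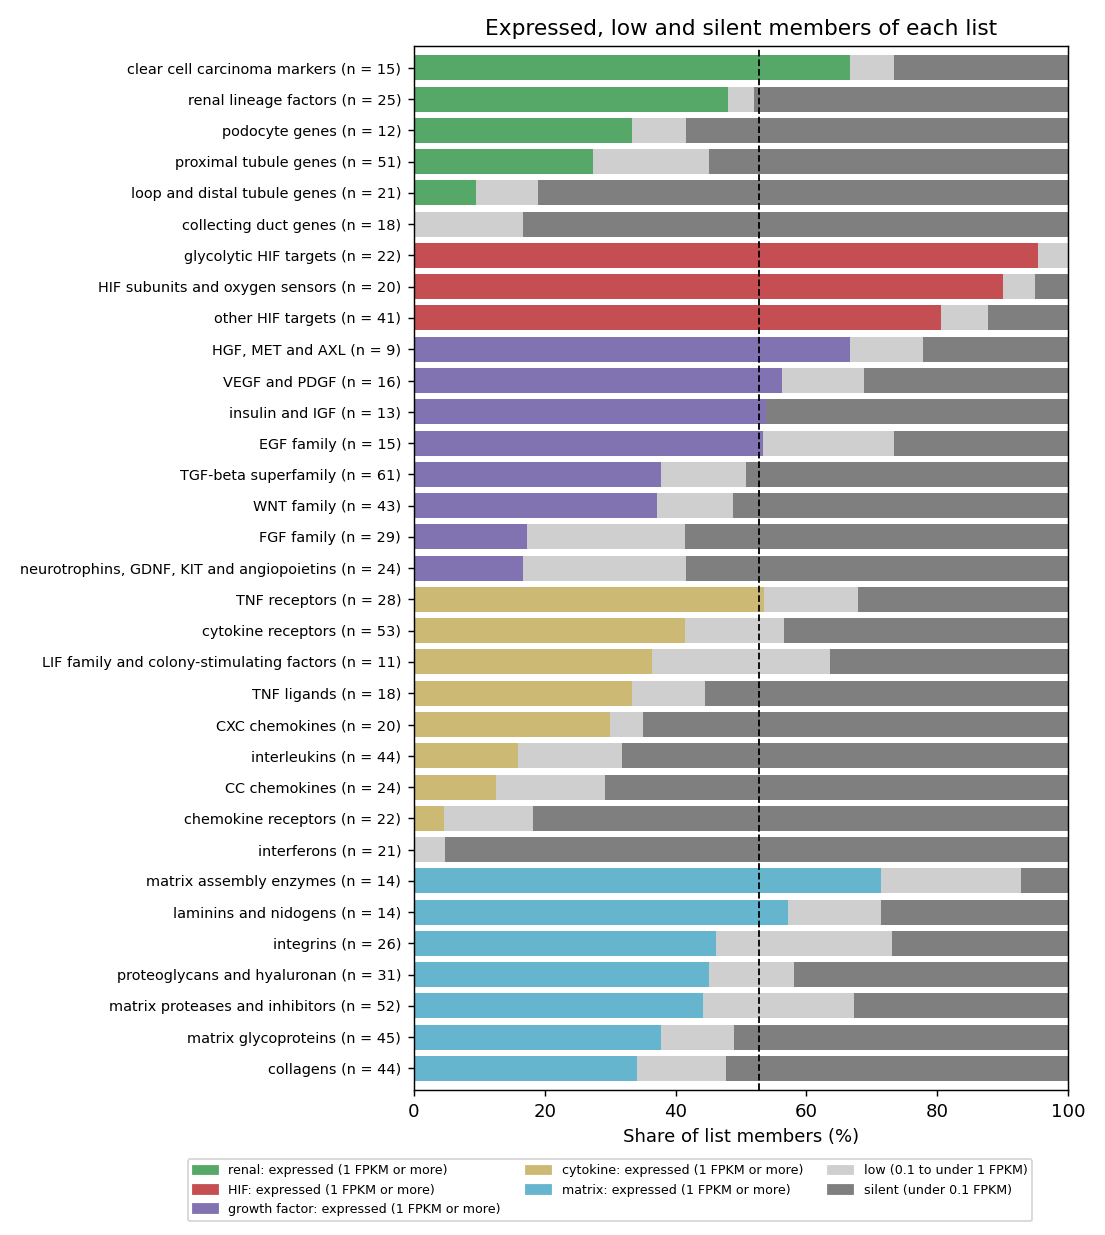
Share of the members of each list (horizontal axis, %) that were expressed (coloured by family), low (light grey) or silent (dark grey) by mean FPKM over the 3 puro samples; n is the number of members and the dashed line marks the 52.7% of all genes that were expressed. The 3 HIF lists reach past 80%, while collecting duct genes and interferons have no expressed member.

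Of 25 transcription factors of the renal lineage 12 were expressed (48.0%, against 52.7% of all genes) and 12 were silent, with PAX8 the most abundant. PAX8, the paired-box factor that marks renal and Müllerian epithelium, had 71.9, 65.3 and 67.0 FPKM in puro 1, 2 and 3 (chromosome 2, 113215997 to 113278950, minus strand). LHX1, a LIM homeodomain factor of the early nephron, had 16.8, 15.0 and 16.0 FPKM. PAX2, which acts beside PAX8 in the nephric duct, was much lower with 2.46, 1.77 and 1.94 FPKM. HOXD11, IRX3, SALL1, POU3F3, WT1, HOXA11 and GATA3 were also expressed. HNF4A, a nuclear receptor of the mature proximal tubule, was not, with counts of 1, 0 and 0. SIX2 and EYA1, factors of the nephron progenitor, averaged 0.00437 and 0.00183 FPKM. The 3-sample ranges of PAX8, HOXD11, LHX1 and IRX3 did not overlap each other, whereas those of IRX3 and SALL1 did.

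Genes of the differentiated tubule were mostly silent. Of 51 proximal tubule genes 14 were expressed, of 21 loop and distal tubule genes 2, and of 18 collecting duct genes none, against 52.7% of all genes. Together the tubule and podocyte lists took 0.115%, 0.129% and 0.122% of the FPKM sum.

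Among proximal tubule genes, adhesion molecules and cell-surface peptidases were present and the solute carriers were scarce. VCAM1, an adhesion molecule of injured tubule cells, had 71.4, 79.2 and 80.6 FPKM. HAVCR1, the injury marker also known as KIM-1, had 27.4, 30.4 and 30.3 FPKM, and CDH6, the cadherin of the early proximal tubule, had 32.0, 38.4 and 34.5 FPKM. The brush-border peptidases ANPEP and DPP4 averaged 30.1 ± 1.15 and 26.0 ± 1.17 FPKM, and the ranges of ANPEP and HAVCR1 overlapped. The endocytic receptor LRP2, or megalin, had no read in 37143673, 33821216 and 34562335 counts (chromosome 2, 169127109 to 169362685, minus strand), and its partner CUBN had 0.282, 0.223 and 0.184 FPKM. DAB2, the adaptor that megalin binds, was expressed nonetheless, with 11.6, 13.1 and 12.3 FPKM.

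Of 21 transporters and channels of the proximal tubule, 4 were expressed (19.0%, against 52.7% of all genes). The bicarbonate cotransporter SLC4A4 averaged 6.16 ± 0.684 FPKM and the sodium-proton exchanger SLC9A3 3.85 ± 0.491 FPKM, though 41.9% of the exons of SLC9A3 overlap another gene on the same strand. The glucose transporter SLC5A2 stayed low with 0.713, 0.496 and 0.664 FPKM, and the water channel AQP1 had 0.0937, 0.0936 and 0.110 FPKM. The phosphate transporter SLC34A1 had counts of 4, 1 and 5, and the organic anion transporter SLC22A8 had no read. Of 21 enzymes 6 were expressed, but of the gluconeogenic ones FBP1 had no read and PCK1 had counts of 0, 1 and 0. MIOX, the inositol oxygenase, stood just above the threshold of the renal family at 1.18 ± 0.248 FPKM, and WNK4, a kinase of the distal tubule, just below it at 0.943 ± 0.168 FPKM. Their 3-sample ranges overlapped, so the line between expressed and low separates such neighbours only by their means.

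Outside the proximal tubule, KCNJ16, a basolateral potassium channel subunit, averaged 4.80 ± 0.363 FPKM and FXYD2, the gamma subunit of the sodium pump, 1.20 ± 0.327 FPKM. UMOD, which encodes uromodulin of the thick ascending limb, had no read. The transporter genes SLC12A1 and SLC12A3 had counts of 0, 0 and 1 and 0, 2 and 0, and the collecting duct water channel AQP2 had counts of 1, 0 and 0. Of 12 podocyte genes 4 were expressed (33.3%, against 52.7% of all genes), and these are genes that other cells use too. They were KIRREL1 at 88.9 ± 1.20, SYNPO at 52.5 ± 1.16, CD2AP at 41.0 ± 3.34 and PODXL at 1.67 ± 0.273 FPKM. NPHS1, which encodes nephrin of the slit diaphragm, had counts of 0, 0 and 3.

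Of 15 markers of clear cell carcinoma 10 were expressed (66.7%, against 52.7% of all genes), 1 was low and 4 were silent. CD70, a TNF family ligand that these tumours carry, had 162, 154 and 155 FPKM (chromosome 19, 6583183 to 6604103, minus strand). CAV1, the main protein of caveolae, had 211, 219 and 229.5 FPKM, and PLIN2, which coats lipid droplets, had 107, 105 and 106 FPKM. NNMT, nicotinamide N-methyltransferase, had 42.0, 37.2 and 39.5 FPKM and ANGPTL4, a secreted lipase inhibitor, 39.0, 35.4 and 35.6 FPKM. The other expressed markers included SPAG4 at 7.26 ± 0.471, CP, which encodes ceruloplasmin, at 4.04 ± 0.182 and TNFAIP6 at 1.88 ± 0.330 FPKM. CA9, the carbonic anhydrase stained for in diagnosis, was low with 0.418, 0.497 and 0.299 FPKM from 24, 26 and 16 counts (chromosome 9, 35673856 to 35681159, plus strand). NDUFA4L2, a mitochondrial protein gene that is high in most such tumours, had counts of 2, 3 and 0, and ESM1, or endocan, and FABP7 had no read.

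**Figure D3:**
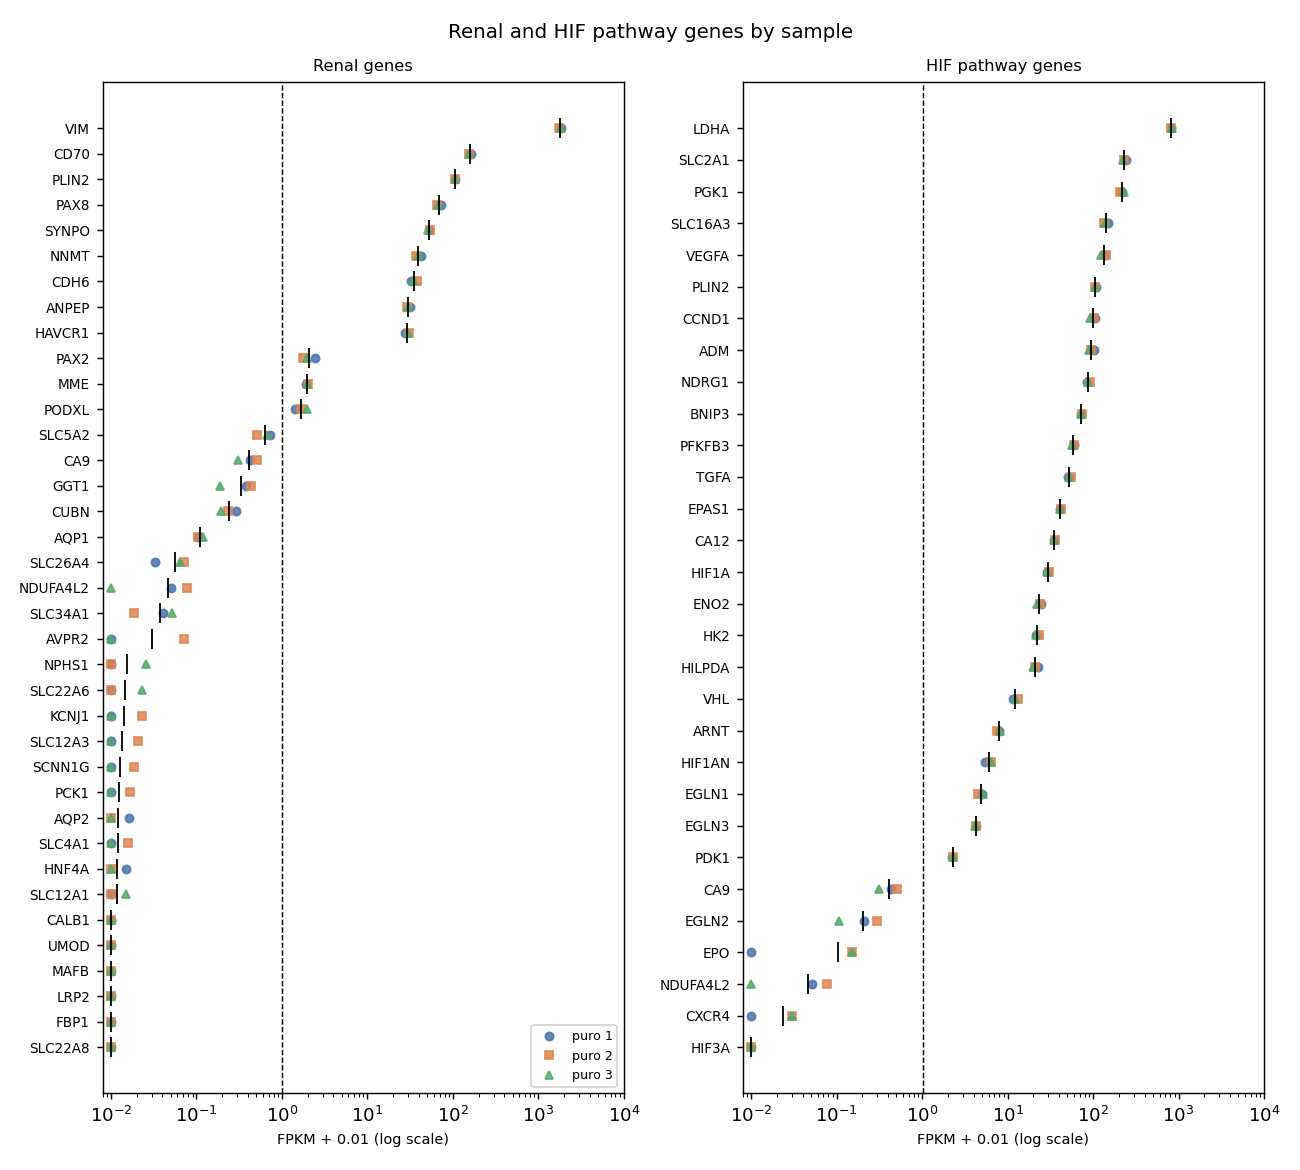
FPKM in each of the 3 puro samples (points by sample) with the mean as a black tick, on a log scale after adding 0.01, for named renal genes (left) and HIF pathway genes (right); the dashed line marks 1 FPKM. The renal factor PAX8 lies above 10 FPKM while most tubule transporters lie at or near 0. Most HIF genes lie above 1 FPKM, and EGLN2, HIF3A, CA9, EPO, NDUFA4L2 and CXCR4 lie under it.

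Of 20 HIF subunits, oxygen sensors and partners, 18 were expressed. EPAS1, which encodes HIF-2 alpha, had 41.3, 42.2 and 40.5 FPKM (chromosome 2, 46293667 to 46386703, plus strand), and HIF1A had 29.2, 30.7 and 28.5 FPKM (chromosome 14, 61695513 to 61748259, plus strand). EPAS1 was higher than HIF1A in each sample and their ranges did not overlap. A count per gene does not show whether the HIF1A transcript is complete. ARNT, the beta subunit that both alpha subunits bind, was lower with 7.91, 7.58 and 8.13 FPKM, and HIF3A, another alpha subunit, had no read.

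The ligase that VHL belongs to was expressed in full, 5 of 5 subunits, against 52.7% of all genes. VHL RNA itself had 11.4, 13.1 and 12.3 FPKM, which says nothing of its protein. RBX1, the RING subunit, averaged 86.2 ± 8.55 FPKM, ELOC 39.2 ± 1.70, ELOB 23.8 ± 3.18 and CUL2 17.9 ± 0.688 FPKM. Of the hydroxylases, EGLN1 had 4.99, 4.502 and 5.09 FPKM and EGLN3 4.29, 4.20 and 4.20 FPKM, while EGLN2 had 0.196, 0.284 and 0.0958 FPKM. For EGLN2, 30.6% of the exons overlap other genes on the same strand, and the part of this overlap in its level was not tested. HIF1AN, the asparaginyl hydroxylase that blocks coactivator binding, had 5.48, 6.39 and 6.38 FPKM.

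Glycolytic HIF targets had the largest expressed share in the family, with 21 of 22 at 1 FPKM or more and a median of 54.7 FPKM. That share was 95.5%, against 52.7% of all genes. They took 2.80%, 2.75% and 2.85% of the FPKM sum. LDHA, which reduces pyruvate to lactate, had 809, 809 and 849 FPKM. The glucose transporter SLC2A1 had 243, 229.6 and 224 FPKM, and SLC16A3, the lactate exporter MCT4, had 149, 135 and 139.5 FPKM. The order below the first 3 enzymes was PGAM1, LDHA, TPI1, SLC2A1, PFKP and PGK1, and the ranges of PGAM1 and LDHA overlapped, as did those of SLC2A1, PFKP and PGK1 with their neighbours. HK2, the inducible hexokinase, averaged 22.0 ± 0.879 FPKM, below HK1 at 50.8 ± 0.886 FPKM. PDK1, the kinase that inhibits pyruvate dehydrogenase, was near the bottom with 2.21, 2.31 and 2.26 FPKM. Of the aldolases, ALDOA averaged 4.22 ± 0.497 FPKM and ALDOC, just under the threshold, 0.666 ± 0.210 FPKM. For ALDOA, 42.3% of the exons overlap another gene on the same strand, and how reads shared between such genes were counted is not given in the sources used here. The part of this overlap in its level was not tested.

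Of the 41 other HIF targets 33 were expressed (80.5%, against 52.7% of all genes). IGFBP3, which binds insulin-like growth factors, had 297, 282 and 284 FPKM. VEGFA, the ligand of endothelial growth, had 139, 141 and 124 FPKM (chromosome 6, 43770184 to 43786487, plus strand). CCND1, the cyclin that HIF-2 is known to drive in this tumour type, had 104, 103 and 91.6 FPKM, and ADM, the vasodilator peptide adrenomedullin, 101.2, 93.3 and 89.9 FPKM. Both were lowest in puro 3, and their ranges overlapped. NDRG1, a stress-induced gene, averaged 87.9 ± 3.24 FPKM, and the mitophagy receptor BNIP3 72.8 ± 1.42 FPKM. CA12, a carbonic anhydrase of the cell surface, had 34.6, 35.8 and 34.5 FPKM against the 0.405 FPKM of CA9. The 8 targets under 1 FPKM were LOX, CA9, ANKRD37, EPO, NDUFA4L2, CXCR4, TF and ESM1. EPO, the red-cell hormone gene, had counts of 0, 8 and 8, and the chemokine receptor CXCR4 counts of 0, 2 and 2. IGFBP1, at 1.44 ± 0.396 FPKM, was the expressed gene of the family nearest the threshold.

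HIF can bind the letters ACGTG, and only these letters were looked for. The search covered both strands of the promoter windows in RefSeq (GRCh38.p14, 250 bases before to 50 after a gene's start). A window with any other HIF-binding letters counts here as having no match. RefSeq starts can differ from the ends of the gene spans given above. In CACGTG the motif overlaps its own reverse complement. Windows were matched for 50 of the 63 glycolytic and other HIF targets, and for 15397 of the 20020 genes. Of all those windows, 23.8% held the letters, against 8 of 21 (38.1%) for glycolytic targets and 17 of 29 (58.6%) for the other targets. By level, the share among all matched genes was 18.2% in silent, 19.1% in low and 26.3% in genes from 1 to under 10 FPKM. It was 29.3% from 10 to under 100, 29.2% from 100 to under 1000 and 40.0% in 20 genes at 1000 FPKM or more. Median GC content was 63.0% over all windows, 70.0% in glycolytic targets and 68.0% in the other targets. Among the other targets, 12 of 22 expressed genes and 5 of 7 low or silent genes held them. Windows are shown as 30 bases around each upstream match for expressed targets (LDHA, PGK1, BNIP3) and for targets under 1 FPKM (LOX, CA9, ESM1), to set the letters of both kinds side by side. Each reads 5′ to 3′ on the gene's strand, with the match in capitals.
LDHA: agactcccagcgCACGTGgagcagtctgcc
LDHA: cagcccgactcaCACGTGggttcccgcacg
LDHA: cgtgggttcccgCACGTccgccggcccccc
PGK1: gcggcgtgccggACGTGacaaacggaagcc
PGK1: aaacggaagccgCACGTctcactagtaccc
BNIP3: gcgcacgcgccgCACGTGccacacgcaccc
LOX: gctccctgtgcaACGTGtctggggggagga
LOX: ctgtccgccttgCACGTttccaatcgcatt
LOX: tccaatcgcattACGTGaacaaatagctga
LOX: gtaactttgcaaACGTGccagaaagtttaa
CA9: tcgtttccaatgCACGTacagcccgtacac
ESM1: taaaactcataaACGTGtaggcagaggctc
The LDHA windows lie at chr11:18394366-18394395, chr11:18394464-18394493 and chr11:18394478-18394507 (plus strand), those of PGK1 at chrX:78104034-78104063 and chrX:78104053-78104082 (plus strand), and that of BNIP3 at chr10:131982040-131982069 (minus strand). The LOX windows lie at chr5:122078427-122078456, chr5:122078358-122078387, chr5:122078340-122078369 and chr5:122078284-122078313 (minus strand), that of CA9 at chr9:35673898-35673927 (plus strand) and that of ESM1 at chr5:54985594-54985623 (minus strand). The first base of the match lies 185, 87 and 73 bases before the start of LDHA, 202 and 183 before that of PGK1, 134 before that of BNIP3, 185, 116, 98 and 42 before that of LOX, and 18 before those of CA9 and ESM1. The letters thus stood before genes at 822 FPKM and before a gene with no read. A match is a description of the letters, not a site of binding. NDUFA4L2, VEGFA, CCND1, NDRG1 and HILPDA were not matched to a window.

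Growth factor signalling was lopsided between ligands and receptors. Of 113 ligands 33 were expressed (29.2%), and of 67 receptors 32 (47.8%), both under the 52.7% of all genes. After VEGFA, the most abundant growth factor ligands were EREG and TGFA of the EGF family, followed by PDGFB. EREG, or epiregulin, had 95.7, 118 and 105 FPKM, TGFA 51.0, 55.7 and 51.6 FPKM, HBEGF 26.4, 26.1 and 26.3 FPKM and AREG 18.9, 20.5 and 19.6 FPKM. All 4 bind EGFR, which had 22.0, 24.7 and 23.3 FPKM, and the ranges of neighbours in this family did not overlap. ERBB2, the partner with no ligand of its own, had 10.2, 11.3 and 10.4 FPKM, and the neuregulin receptor ERBB3 counts of 2, 5 and 8, although its ligand NRG1 was expressed at 5.10 ± 0.214 FPKM.

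Most VEGF and PDGF ligands were expressed and their receptor kinases were not. Of 9 VEGF and PDGF ligands 7 were expressed, against 2 of 7 receptors. These shares were 77.8% and 28.6%, beside 52.7% of all genes. PDGFB had 48.8, 44.2 and 48.0 FPKM, VEGFB averaged 14.7 ± 1.29 and VEGFC 14.4 ± 1.16 FPKM. The 2 expressed receptors were the neuropilins, coreceptors without kinase activity, NRP2 at 34.8 ± 1.18 and NRP1 at 32.2 ± 1.55 FPKM. KDR, the main VEGF receptor of endothelium, had 0.0877, 0.157 and 0.0694 FPKM, and PDGFRB, the receptor for PDGFB, 0.170, 0.124 and 0.152 FPKM.

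MET and AXL, receptor kinases tied to invasion and drug resistance in this tumour, were the most abundant growth factor receptors. MET had 87.1, 99.1 and 93.4 FPKM (chromosome 7, 116672390 to 116798386, plus strand) and AXL 89.0, 95.4 and 98.0 FPKM, with overlapping ranges. HGF, the ligand of MET, had counts of 0, 2 and 0, while GAS6, the ligand of AXL, had 20.9, 18.0 and 18.5 FPKM. Both receptors were lowest in puro 1 and GAS6 was highest there, and the part of the gene-length trend in this was not tested.

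Receptors and binding proteins of insulin-like growth factors were expressed, and their ligands had no read. These ligands are IGF1, IGF2 and INS, and IGF2 and INS lie in an unbroken run of 4 genes without a read on chromosome 11 (2129112 to 2161341). For IGF2, 73.7% of the exons overlap the readthrough gene INS-IGF2, which had no read either. How reads shared between these genes were counted is not given, so the level of IGF2 stays uncertain. IGF2R, a receptor that takes IGF2 to the lysosome, had 25.6, 27.3 and 26.3 FPKM, IGF1R 1.45, 1.54 and 1.54 FPKM, and the insulin receptor INSR averaged 0.0502 FPKM. Of 7 binding proteins 5 were expressed (71.4%, against 52.7% of all genes). IGFBP3 was far ahead of IGFBP7 at 32.2 ± 2.22 and IGFBP6 at 29.1 ± 3.16 FPKM.

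In the TGF-beta superfamily 9 of 33 ligands, 7 of 14 receptors and 7 of 14 antagonists or latency proteins were expressed. The activin subunits INHBB and INHBA had 26.6, 25.8 and 26.0 FPKM and 19.8, 22.0 and 19.3 FPKM. TGFB1 had 26.6, 22.5 and 23.7 FPKM and TGFB2 10.8, 11.4 and 11.6 FPKM, while TGFB3 stood just under the threshold at 0.935 ± 0.0816 FPKM. The ranges of INHBB and TGFB1 overlapped. TGFBR2, the receptor that binds the ligand first, had 49.3, 53.8 and 47.5 FPKM, and TGFBR1, the kinase it activates, 4.30, 4.83 and 4.98 FPKM. FSTL3, which binds activin, averaged 47.9 ± 3.24 FPKM, but FST, its relative follistatin, had no read. LTBP3, which holds latent TGF-beta in the matrix, averaged 26.9 ± 3.24 FPKM, and the BMP antagonist GREM1 0.00643 FPKM. GDF15, a stress-induced cytokine of this superfamily, sat at the line with 1.04, 1.34 and 0.684 FPKM, just above WNT3 at 0.940 ± 0.0855 FPKM, and their ranges overlapped. All but 1 of the 8 SMAD genes that carry these signals were expressed (87.5%, against 52.7% of all genes). SMAD3 averaged 44.9 ± 1.37 FPKM, the inhibitory SMAD7 14.0 ± 0.731, the shared SMAD4 4.62 ± 0.369 and SMAD2 1.63 ± 0.127 FPKM. SMAD9 stayed low at 0.358 ± 0.122 FPKM.

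The WNT family showed many receptors and few ligands, with 11 of 15 receptors, 4 of 19 ligands and 1 of 9 antagonists expressed. These shares were 73.3%, 21.1% and 11.1%, against 52.7% of all genes. FZD6 was the most abundant receptor with 51.2, 54.9 and 54.3 FPKM, and WNT7B the most abundant ligand with 22.2, 18.9 and 20.5 FPKM. WNT5A had 3.75, 3.996 and 3.74 FPKM. DKK3 was the 1 expressed antagonist, with 19.5, 18.8 and 19.8 FPKM, and DKK1, which blocks the WNT coreceptors, had counts of 2, 6 and 0. Fibroblast growth factors had 2 of 22 ligands expressed, FGF2 at 6.57 ± 0.275 and FGF5 at 4.78 ± 0.224 FPKM, and 3 of 7 receptors, FGFRL1, FGFR1 at 17.5 ± 0.291 and FGFR4 at 9.48 ± 0.459 FPKM. KL, or klotho, the FGF23 coreceptor of the distal tubule, had counts of 0, 2 and 2. Of the neurotrophins, GDNF family, KIT and angiopoietins, 4 of 24 were expressed. KITLG averaged 9.21 ± 0.684 FPKM while its receptor KIT averaged 0.00835 FPKM, the coreceptor GFRA1 averaged 7.55 ± 0.401 FPKM, and ARTN, a ligand of the GDNF family, 4.78 ± 0.217 FPKM.

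**Figure D4:**
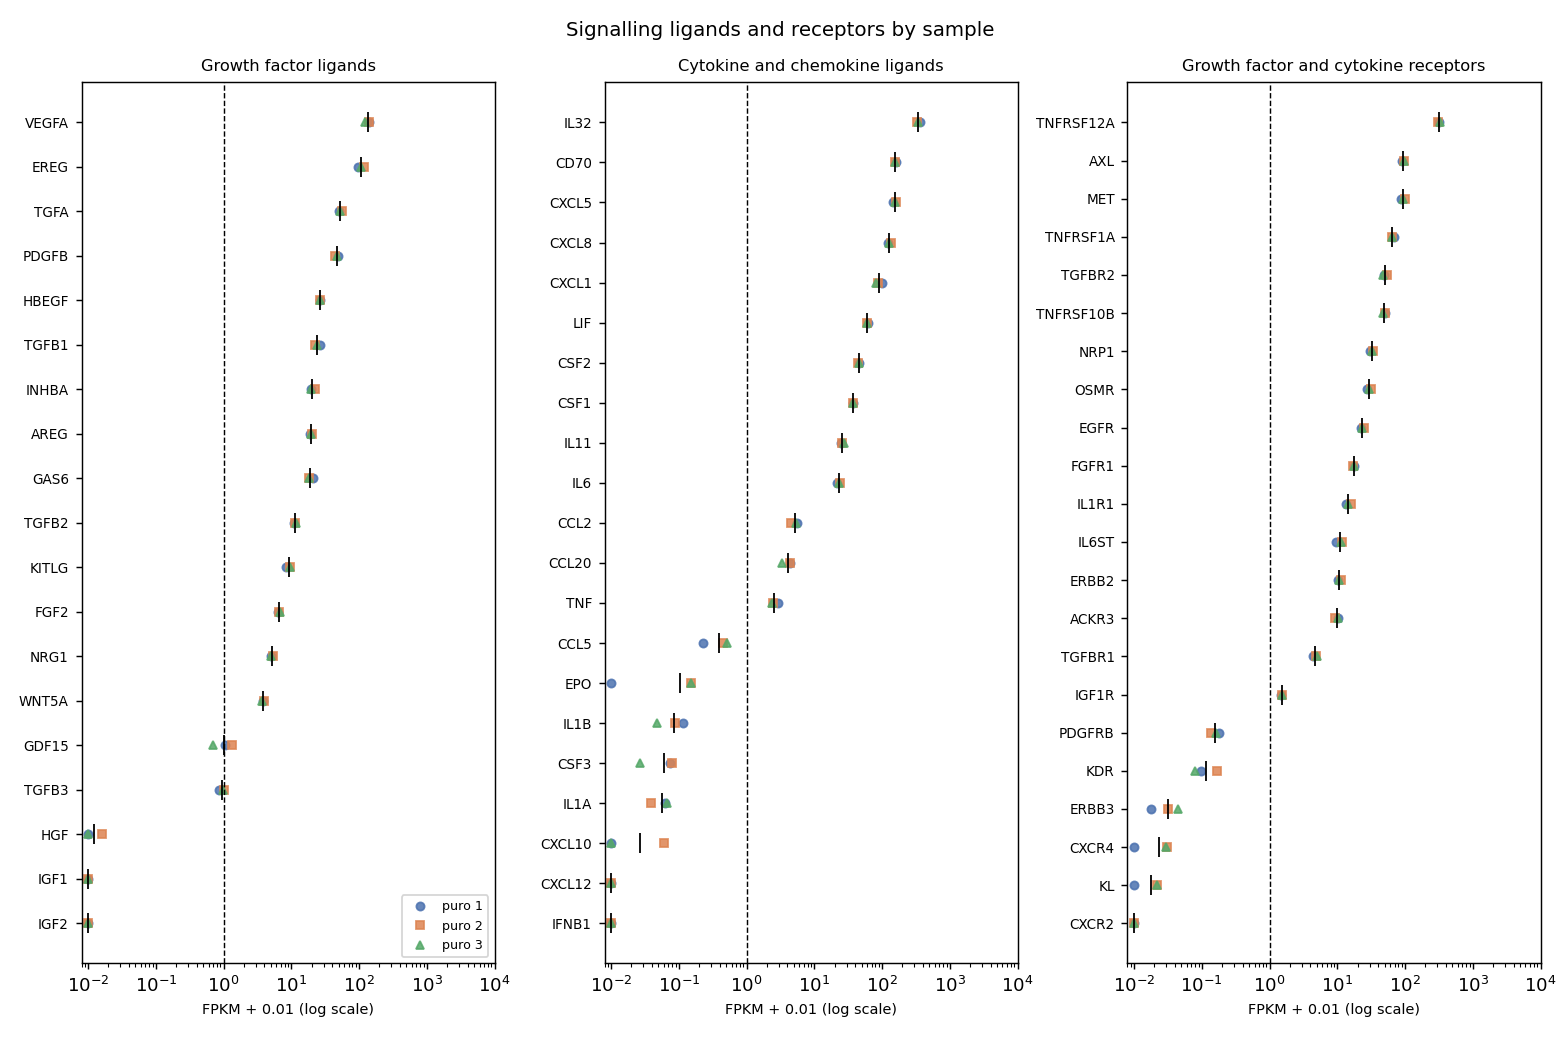
FPKM in each of the 3 puro samples (points by sample) with the mean as a black tick, on a log scale after adding 0.01, for named growth factor ligands (left), cytokine and chemokine ligands (middle) and receptors of both families (right); the dashed line marks 1 FPKM. The points of a gene lie close together above 1 FPKM and spread below it, and IGF1, IGF2, CXCL12, IFNB1 and CXCR2 lie at 0.

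Cytokine genes were expressed in a few high genes among many silent ones. Of 138 ligands 26 were expressed (18.8%), and of 103 receptors 38 (36.9%), against 52.7% of all genes. IL32, a cytokine of epithelial and lymphoid cells, led with 364, 330.2 and 337 FPKM (chromosome 16, 3065297 to 3082192, plus strand). The next interleukins, IL11 and IL6, both of which signal through the shared receptor chain gp130, had 24.4, 25.4 and 27.2 FPKM and 21.7, 23.8 and 23.4 FPKM. Of 44 interleukins 7 were expressed, and the classical inflammatory pair IL1A and IL1B had counts of 4, 2 and 4 and 6, 4 and 2. IL23A stood just under the threshold of the family at 0.724 ± 0.490 FPKM, with puro 3 far above the other samples (0.519, 0.371 and 1.28 FPKM), and CX3CL1 just above it at 1.22 ± 0.0175 FPKM.

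LIF and the colony-stimulating factors were steady between samples. LIF, a further gp130 ligand, had 61.8, 60.0 and 60.6 FPKM. CSF2, or GM-CSF, had 45.5, 44.6 and 45.3 FPKM and CSF1, or M-CSF, 36.9, 36.8 and 36.7 FPKM, with SDs of 0.471 and 0.124 FPKM. CSF3, the granulocyte factor, had counts of 4, 4 and 1. Some receptor chains of the gp130 group were expressed as well, and not every chain of these ligands is given here. OSMR, the oncostatin M receptor, had 27.2, 31.5 and 29.7 FPKM. IL6ST, which encodes gp130, had 9.65, 11.8 and 11.4 FPKM. LIFR averaged 6.85 ± 0.714 and IL6R 1.56 ± 0.194 FPKM.

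Chemokine expression was carried by CXC ligands that attract neutrophils. CXCL5 had 143, 159.8 and 157 FPKM, CXCL8, or interleukin 8, 124, 135 and 127 FPKM (chromosome 4, 73740506 to 73743716, plus strand), and CXCL1 98.7, 86.1 and 81.2 FPKM. The ranges of the 3 did not overlap, and all are genes of the chromosome 4 cluster. Of 20 members 6 were expressed. The interferon-induced CXCL10 had counts of 0, 2 and 0, and CXCL12, the ligand of CXCR4, had no read. Among 24 CC chemokines 3 were expressed (12.5%). They were CCL2 at 5.18 ± 0.530, CCL28 at 4.38 ± 0.540 and CCL20 at 4.04 ± 0.587 FPKM, with overlapping ranges between neighbours. CCL5 was low at 0.217, 0.434 and 0.509 FPKM. Their receptor genes were nearly silent: of 22 chemokine receptors 1 was expressed (4.55%), the scavenger ACKR3 with 10.2, 9.22 and 10.1 FPKM. CXCR2, the receptor for CXCL5, CXCL8 and CXCL1, had no read.

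TNF family ligands and receptors included some of the most abundant signalling genes. TNFSF10, which encodes the death ligand TRAIL, had 189, 193 and 172 FPKM, and TNFSF9, or 4-1BB ligand, 70.7, 59.4 and 59.1 FPKM. TNF itself averaged 2.57 ± 0.310 FPKM. Of 28 receptors 15 were expressed (53.6%), the one cytokine list whose share reached that of all genes. TNFRSF12A, the receptor for TWEAK, had 314, 306 and 332 FPKM, TNFRSF1A, the main TNF receptor, 67.7, 64.1 and 63.7 FPKM, and the TRAIL receptor TNFRSF10B averaged 49.3 ± 1.40 FPKM. FAS, another death receptor, averaged 1.71 ± 0.140 FPKM. IL1R1, the signalling receptor for interleukin 1, had 13.4, 16.0 and 14.4 FPKM, close to its decoy IL1R2 at 17.4 ± 1.62 FPKM.

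Interferons were the quietest list, with 20 of 21 genes without a read, against 17.8% of all genes. IFNB1 was among them, and the single gene with reads was IFNE, an epithelial interferon, with 0.402, 0.120 and 0.294 FPKM. On chromosome 9 a run of 10 neighbouring genes from IFNB1 to IFNA5 (21077105 to 21305312) had no read, and so had a run of 5 from IFNA6 to IFNA1 (21349835 to 21441316). Interferon receptor genes that were expressed included IFNGR1 at 20.5 ± 0.566, IFNGR2 at 15.4 ± 0.571 and IFNAR1 at 5.63 ± 0.321 FPKM. IFNAR2 averaged 10.2 ± 0.762 FPKM, with 44.2% of its exons shared with another gene on the same strand. Not every receptor of the listed interferons is given here.

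Further along chromosome 9, MTAP, a methylthioadenosine phosphorylase gene, had 7.39, 8.47 and 7.99 FPKM. Its neighbour CDKN2A, which encodes the cell-cycle inhibitor p16, had counts of 0, 4 and 2, and CDKN2B, which encodes p15, had no read (chromosome 9, 21967753 to 21995301, minus strand for CDKN2A). DMRTA1, the next gene, was expressed again with 2.76, 2.87 and 3.27 FPKM. The other tumour suppressors and drivers listed were expressed, 15 of 17 in all (88.2%, against 52.7% of all genes). BAP1 averaged 34.2 ± 1.25, PBRM1 7.94 ± 0.418 and SETD2 9.87 ± 0.749 FPKM.

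The matrix family took 1.87%, 1.92% and 1.84% of the FPKM sum, and most of its glycoprotein share came from a few genes. FN1, or fibronectin, was the 35th most abundant gene with 1041, 1056 and 979.5 FPKM (chromosome 2, 215360440 to 215436172, minus strand). TGFBI, a matrix protein induced by TGF-beta, had 815, 765 and 759 FPKM, and CCN1, a matricellular protein, 263, 239 and 260.4 FPKM. SPARC, SPP1 (osteopontin) and THBS1 (thrombospondin) averaged 182 ± 5.21, 149 ± 4.11 and 141 ± 9.47 FPKM, and the last pair had overlapping ranges. CCN2, the close relative of CCN1, had 6.46, 5.34 and 5.90 FPKM, and POSTN, or periostin, counts of 2, 0 and 2. Of 45 glycoproteins 17 were expressed (37.8%, against 52.7% of all genes).

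The most abundant collagens were those of microfibrils, anchoring fibrils and basement membrane. COL6A3 had 180.4, 186 and 175 FPKM (chromosome 2, 237324003 to 237414375, minus strand), and the other chains of microfibrillar collagen VI, COL6A1 and COL6A2, averaged 66.4 ± 5.17 and 62.2 ± 4.03 FPKM with overlapping ranges. COL7A1, the anchoring fibril chain, had 113, 99.9 and 86.4 FPKM, highest in puro 1. The basement membrane chains COL4A1 and COL4A2, which assemble together, had 34.1, 34.99 and 32.8 FPKM and 20.4, 18.9 and 19.7 FPKM. Of the fibrillar chains, 3 of 11 were expressed (27.3%, against 52.7% of all genes). COL1A1 was just above the threshold at 1.06 ± 0.106 FPKM, while its partner COL1A2 had counts of 1, 0 and 0 and COL3A1 counts of 2, 0 and 0. The proteoglycan BCAN stood just under the line at 0.880 ± 0.0699 FPKM.

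Laminin chains were expressed in 8 of 14 genes of that list (57.1%, near the 52.7% of all genes). LAMC1 had 85.9, 86.9 and 85.1 FPKM, LAMB1 63.6, 66.6 and 61.4 FPKM, and LAMB3 averaged 47.6 ± 0.938 FPKM. The alpha chains were lower, LAMA3 at 15.9 ± 1.55 and LAMA5 at 3.25 ± 0.115 FPKM. Among proteoglycans and hyaluronan genes 14 of 31 were expressed (45.2%). They were led by SDC4, a syndecan, with 151, 166 and 161 FPKM and AGRN, or agrin, with 142, 119 and 117 FPKM. The hyaluronan receptor CD44 averaged 117 ± 6.72 FPKM and the synthase HAS3 67.0 ± 1.29 FPKM, and the stromal proteoglycan DCN had no read.

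Matrix assembly enzymes were expressed in 10 of 14 genes (71.4%, against 52.7% of all genes), with a median of 53.3 FPKM. P4HB, a disulphide isomerase that is also part of prolyl hydroxylase, had 221, 208 and 211 FPKM, and the cross-linking transglutaminase TGM2 213, 202 and 201 FPKM. LOXL2, a lysyl oxidase, averaged 66.7 ± 3.67 FPKM, whereas LOX was low with 0.589, 0.497 and 0.601 FPKM. Of 42 metalloproteinases 15 were expressed (35.7%). MMP14, the membrane protease that activates MMP2, had 125, 117 and 114 FPKM and MMP2 56.1, 51.1 and 53.4 FPKM. The collagenase MMP13 averaged 21.6 ± 2.703 FPKM and the gelatinase MMP9 5.46 ± 0.669 FPKM. Of the inhibitors, TIMP1 had 79.5, 74.2 and 65.9 FPKM and TIMP3 counts of 9, 4 and 0. The urokinase gene PLAU averaged 40.2 ± 0.683 and its receptor PLAUR 32.8 ± 2.68 FPKM.

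Integrins were expressed in 6 of 8 beta chains (75.0%) and 6 of 18 alpha chains (33.3%), against 52.7% of all genes. ITGA3, the laminin-binding partner of ITGB1, had 331, 319 and 319.6 FPKM, and ITGB1, the shared beta chain, 162, 171 and 164 FPKM. ITGA5 and ITGAV, which bind fibronectin, averaged 60.9 ± 1.89 and 46.3 ± 3.36 FPKM, and ITGB5 78.8 ± 2.01 FPKM. ITGB3 averaged 31.6 ± 2.05 FPKM, with 51.6% of its exons shared with another gene on the same strand.

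The cells carried keratins beside vimentin. KRT8, KRT19 and KRT18, keratins of simple epithelium, averaged 128 ± 4.94, 127 ± 7.45 and 91.3 ± 4.48 FPKM. N-cadherin, CDH2, had 85.9, 95.6 and 93.9 FPKM, while E-cadherin, CDH1, had counts of 2, 1 and 0. SNAI1 and SNAI2, repressors of CDH1, averaged 15.0 ± 0.789 and 9.16 ± 0.535 FPKM, and ZEB1 5.85 ± 0.710 FPKM. IGF2BP2, the gene the hairpin of this series targets, had 16.6, 17.1 and 17.5 FPKM in the control cells, with a range that overlapped that of IGF2BP3 at 15.9, 18.0 and 17.8 FPKM, and IGF2BP1 averaged 0.0437 ± 0.0128 FPKM. Of the IGF2BP family, 2 of 3 genes were expressed. In a separate list of genes that write, read and erase N6-methyladenosine, which leaves out the IGF2BP readers, 18 of 18 were expressed, against 52.7% of all genes. Among them, METTL3 averaged 37.3 ± 0.877, METTL14 5.46 ± 0.537 and FTO 1.79 ± 0.157 FPKM.

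Promoter sequence, which had not been used to choose any list, differed with the level of the gene. The ratio of observed to expected CpG in the 300-base windows had a median of 0.767 over the 15397 matched genes. It was 0.375 in silent genes, 0.670 in low genes, 0.837 from 1 to under 10 FPKM and 0.871 from 10 to under 100 FPKM. The same direction was seen within each family. In the cytokine family the median was 0.674 in 45 expressed and 0.207 in 130 low or silent genes, in the renal family 0.639 in 26 and 0.367 in 68, and in the matrix family 0.709 in 69 and 0.537 in 87. Growth factor genes had 0.861 in 61 expressed and 0.693 in 101 low or silent genes, and HIF genes 0.840 in 56 and 0.758 in 10. Genes that neighbour or descend from each other share sequence, so these medians are a description.

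**Figure D5:**
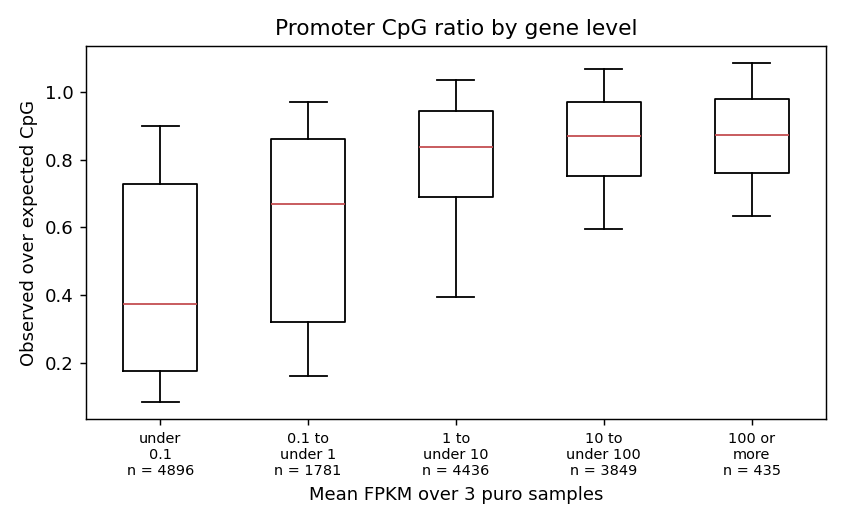
Observed over expected CpG in the 300-base promoter window (vertical axis) by mean FPKM over the 3 puro samples (horizontal axis); boxes give the quartiles, red lines the medians and whiskers the 10th and 90th percentiles, with n the number of matched genes. The median lies at 0.375 in silent genes and at 0.871 from 10 to under 100 FPKM.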

How the data were processed

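The series measured polyadenylated RNA in 6 samples, of which the 3 labelled puro were used. Per the submitters' processing notes, the tools were fastp 0.23.2 for trimming, STAR 2.7.10a on hg38 for alignment, featureCounts for counting, and DESeq2. Which annotation and strand setting were used, and what was done with multimapping reads, is not given in the sources used here, so levels of overlapping genes and near-identical copies are uncertain. The count values are the authors' whole-number counts per gene symbol, as deposited. The FPKM values, counts scaled by gene length and library total, are the authors' own, as deposited. Dividing counts by FPKM and library total gave a constant gene length in 14918 of 14918 genes with a read in at least 2 puro columns, within a relative tolerance of 1e-06. That length lay within 1% of the merged exon length in GENCODE for 107 of 851 list members compared. Levels and ranks between genes therefore depend on the lengths the authors used. The other 12 columns of the 2 tables were not used.

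Levels are means of FPKM with SD over 3 samples. With 1 group no test was made: the smallest p an exact paired permutation of 3 samples allows is 0.25. Sharing of ranges between neighbours in the order of levels was read from the 3 values of each gene. The spread between samples was fitted with edgeR 4.0.16 (R 4.3.3) on the 12514 genes kept by filterByExpr, with a design of a single group, and checked on simulated counts. Tables were computed in Python 3.11.15 with pandas 2.3.3. Gene spans come from GENCODE on GRCh38 by symbol, and promoter windows from RefSeq (GRCh38.p14).

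The 44 lists hold 1017 genes, 883 of them in the 5 families, and both members and lists were chosen with earlier results of these data known. The HOX, SMAD, N6-methyladenosine and lipid storage lists were added after family values had been seen. Genes named are the 25 most abundant, preset members and the 6 highest of each list, the nearest above and below 1 FPKM in each family, the 5 most variable genes at 10 FPKM or more, and list members in runs of at least 4 neighbouring genes without a read. Genes named beyond that rule, such as FAS, LIFR and SIX2, were chosen after their values were seen. Some members of the lists are not reported here by name. Alternatives covered other FPKM thresholds, TPM, count filters, scaling without mitochondrial genes, pseudocounts, TMM factors and each sample left out in turn.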

Additional observations from a re-analysis of the deposited data

How the results depend on the processing

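Of 78 alternatives to 9 results, 66 stayed close to the value reported, within 1.5 times for counts of genes and the median SD and within 1 SD between samples for the top-10 share, and 12 moved further. With no filter on low values, a gene counting as expressed at 1 count in any sample, 16449 genes were expressed, with 115 renal, 172 growth factor, 166 cytokine and 210 matrix members. At 5 FPKM, 26 renal and 41 cytokine members were expressed. Genes without a read numbered 7123 when a mean under 0.1 FPKM was taken in place of 0 counts. The share of the 10 most abundant genes was 7.23% without mitochondrially encoded genes, 9.73% without ribosomal protein genes and 5.51% as a share of counts. The median SD of log2(FPKM + 1) was 0.0778 in expressed genes and 0.0514 with no filter. TPM, with each sample rescaled to a common sum, gave 11703 expressed genes and 51 renal, 74 HIF, 95 growth factor, 79 cytokine and 116 matrix members.

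Leaving out each sample in turn gave 10545 to 10568 expressed genes, 42 to 43 renal, 71 HIF, 77 to 78 growth factor, 64 cytokine and 99 matrix members. It gave 4044 to 4125 genes without a read, a top-10 share of 8.43% to 8.61% and a median SD of 0.0541 to 0.0769. No paired analysis was possible because the results come from no test between groups. A gene near 1 count per library has a level that depth limits, and the thresholds of 0.1 and 1 FPKM do not separate genes whose 3 values overlap.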

Other observations

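The HOX clusters, which set position along the body axis, were expressed in 29 of 39 genes (74.4%, against 52.7% of all genes). The genes at the posterior end of each cluster were under 1 FPKM, and so were HOXB1, HOXC5 and HOXD3 elsewhere in the clusters. HOXA10, HOXA9 and HOXB2 were the most abundant with 23.9 ± 1.86, 21.1 ± 1.26 and 20.7 ± 1.67 FPKM, and 24 of 28 neighbours in the order of levels had overlapping ranges. By cluster, 10 of 11 HOXA, 8 of 10 HOXB, 5 of 9 HOXC and 6 of 9 HOXD genes were expressed. The group 13 genes HOXA13, HOXB13 and HOXD13 averaged 0.930 ± 0.0317, 0.0221 ± 0.0148 and 0.00816 ± 0.0141 FPKM, and HOXC13 and HOXC12 had no read. HOXD11 averaged 18.7 ± 0.991 FPKM and HOXD12, its neighbour, 0.0153 ± 0.0265 FPKM. Exons of adjacent HOX genes overlap, which leaves the levels of HOXD4, HOXD3 and HOXC5 uncertain.

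Genes of lipid storage were expressed in 13 of 24 cases (54.2%, against 52.7% of all genes), and members of 1 family differed. FABP5, a fatty acid binding protein, had 224, 204 and 209 FPKM in puro 1, 2 and 3, while FABP4 averaged 0.0644 ± 0.0649 FPKM. Of the perilipins, PLIN2 and PLIN3 averaged 106 ± 0.978 and 100.2 ± 4.28 FPKM, PLIN1 and PLIN4 0.0544 ± 0.0350 and 0.0649 ± 0.0241 FPKM, and PLIN5 had no read. G0S2, an inhibitor of the lipase that PNPLA2 encodes, had 83.8, 73.8 and 86.8 FPKM and PNPLA2 29.7, 23.2 and 25.5 FPKM. CPT1A, which moves fatty acids into mitochondria, was low with 0.130, 0.0919 and 0.120 FPKM.

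Families of other tissues were nearly without reads. Of 415 olfactory receptor genes none was expressed and 335 had no read, against 17.8% of all genes, and 39 of 42 beta-defensin genes had none. Genes without a read also lay side by side: 127 runs of at least 4 neighbours held 913 of the 19721 genes placed on the genome, and the longest held 37. Of these runs 10 held a member of the lists, among them CCL8, CCL13 and CCL1 on chromosome 17 (34319036 to 34639318).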
